A study of Mus musculus with 18 samples.

Results

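The genes described are 31 genes of blood coagulation and fibrinolysis, taken from the table by a list of gene symbols, of 56691 genes in the table. Of these, 23 are plasma proteins made by hepatocytes, among them the fibrinogen chains, prothrombin and antithrombin, and 8 are products of endothelial or other cells, or genes known to be induced by injury. All 31 were found once each and had enough counts to be tested. The samples are livers of wild-type mice of the C57BL/6 strain, sequenced as RNA, with 6 libraries in each of 3 groups. Sham mice were anaesthetised, disinfected and opened at the abdomen, with no clamping. In the IR group (ischemia and reperfusion) clips closed the portal triad for 1 h, so that the median and left lobes, about 70% of the liver, lost their blood supply, and 6 h of reperfusion followed. IR-Ori mice received oridonin, a plant diterpenoid, besides ischemia and reperfusion. Neither its dose nor its timing, nor the age of the mice, is given in the sources used here. Whether each library is a separate animal cannot be read from the labels, so p-values measure only the spread between these samples.

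Coagulation is a chain of proteases that ends in thrombin, which cuts fibrinogen to fibrin. Tissue factor with factor VII starts it, the contact system can start it on charged surfaces, and antithrombin, the protein C pathway and tissue factor pathway inhibitor restrain it. Fibrinolysis runs against it: plasminogen activators turn plasminogen into plasmin, which dissolves fibrin. The liver makes most of the plasma proteins of both systems, while thrombomodulin, the protein C receptor and von Willebrand factor sit on or in endothelial cells.

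Libraries held 12449529 to 19798188 counts. The mitochondrially encoded genes took 6.52% to 42.9% of them, with under 15% in 3 sham libraries (1, 3 and 4), 3 IR libraries (4, 5 and 6) and IR-Ori 5 alone, so this share is unevenly spread over the groups. FPKM (counts scaled by exon length and library size) in the table were divided by totals that include the mitochondrial counts. The liver label was checked on 7 hepatocyte markers. Their summed FPKM spanned 13458 to 45675 over the sham libraries, 21677 to 29988 over IR and 25281 to 38685 over IR-Ori, and none of the 7 passed the test in the 3 comparisons between groups. Albumin (Alb), the most abundant plasma protein, had group means of 20138 ± 7627 FPKM (sham), 15716 ± 2245 (IR) and 18208 ± 3490 (IR-Ori), each with its SD over 6 libraries.

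Promoter sequence was at hand for 24 of the 31 genes, as 25 promoters of 250 bases before the gene start, from RefSeq on GRCm38.p6, an older build than that of the table. Thbd, Plat, Plau, Vwf, Kng1, Plg and Proc were not matched. Promoters of 4 genes are shown for what the results below turn on: Procr rose and fell between the groups, Klkb1 fell, F3 starts coagulation, and Fgb encodes the fibrinogen chain with the largest difference between IR and sham. Each runs 5′ to 3′ on the gene's strand, and capitals mark a match to a searched motif on either strand.

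Procr, chr2:155750967-155751216, plus strand, 1 AP-1 match at -154 to -148 from the start:
Procr: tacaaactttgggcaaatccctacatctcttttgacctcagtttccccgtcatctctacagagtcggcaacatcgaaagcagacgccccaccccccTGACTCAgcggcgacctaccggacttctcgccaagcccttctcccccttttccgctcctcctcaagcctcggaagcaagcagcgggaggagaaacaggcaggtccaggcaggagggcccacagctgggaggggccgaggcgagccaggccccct
F3, chr3:121723287-121723536, plus strand, 2 AP-1 matches at -146 to -140 and -135 to -129:
F3: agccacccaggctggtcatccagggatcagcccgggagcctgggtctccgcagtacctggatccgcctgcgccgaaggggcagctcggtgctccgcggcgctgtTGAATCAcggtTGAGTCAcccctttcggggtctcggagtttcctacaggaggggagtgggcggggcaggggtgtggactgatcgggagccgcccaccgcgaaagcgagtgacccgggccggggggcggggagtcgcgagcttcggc
Fgb, chr3:83049864-83050113, minus strand, an AP-1 match at -173 to -167 and a STAT match at -162 to -154:
Fgb: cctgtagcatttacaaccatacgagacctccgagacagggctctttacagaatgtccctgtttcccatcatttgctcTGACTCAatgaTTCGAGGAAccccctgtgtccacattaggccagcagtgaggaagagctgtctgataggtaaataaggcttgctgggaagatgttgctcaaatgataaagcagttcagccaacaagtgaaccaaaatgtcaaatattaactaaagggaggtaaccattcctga
Klkb1, chr8:45294836-45295085, minus strand, a TATA box match at -132 to -127:
Klkb1: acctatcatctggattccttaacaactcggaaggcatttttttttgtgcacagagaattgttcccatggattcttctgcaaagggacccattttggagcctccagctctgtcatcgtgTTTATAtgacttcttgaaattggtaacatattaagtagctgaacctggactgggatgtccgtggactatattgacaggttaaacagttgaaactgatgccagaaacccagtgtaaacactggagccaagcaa

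The AP-1 letters TGANTCA stood in 5 of the 25 promoters (F2, F3, Fgb, Hrg and Procr) and in 6.75% of 32851 promoters of the same length. The STAT letters TTCNNNGAA stood in 4 (F9, Fga, Fgb and Pros1) and in 7.02% of all. TGACGTCA, the cyclic AMP response element, was found in Cpb2 and in 1.55% of all promoters, and TATAAA in Klkb1 and Tfpi and in 12.4% of all. In Klkb1 the TATAAA letters lay on the strand opposite the gene, at -132 to -127. Of the 5 genes with AP-1 letters, Procr passed a test between groups and the other 4 did not. A match is a description of the sequence and no evidence of binding.

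Fibrinogen gamma, beta and alpha chains (Fgg, Fgb, Fga) led, with 1585, 1540 and 1156 FPKM over the 18 libraries. Kininogen 1 (Kng1), the cofactor of the contact system and source of bradykinin, followed with 659.8, then histidine-rich glycoprotein (Hrg) with 273.9, plasminogen (Plg) with 241 and prothrombin (F2) with 187. The 8 genes of endothelial or induced kind had the lowest 8 means, from 2.82 for thrombomodulin (Thbd) to 0.122 for tissue plasminogen activator (Plat). The 23 hepatocyte factors had group means of 15.04 to 1353 FPKM in sham, and the 8 others 0.042 to 2.11. Within sham the coefficient of variation was 8.27% to 70.5% over the hepatocyte factors, lowest in F12 and highest in Fga. Neighbouring genes in this order often overlapped: Fgg was 356 to 2516 FPKM and Fgb 391.4 to 1874 in sham.

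**Figure D1:**
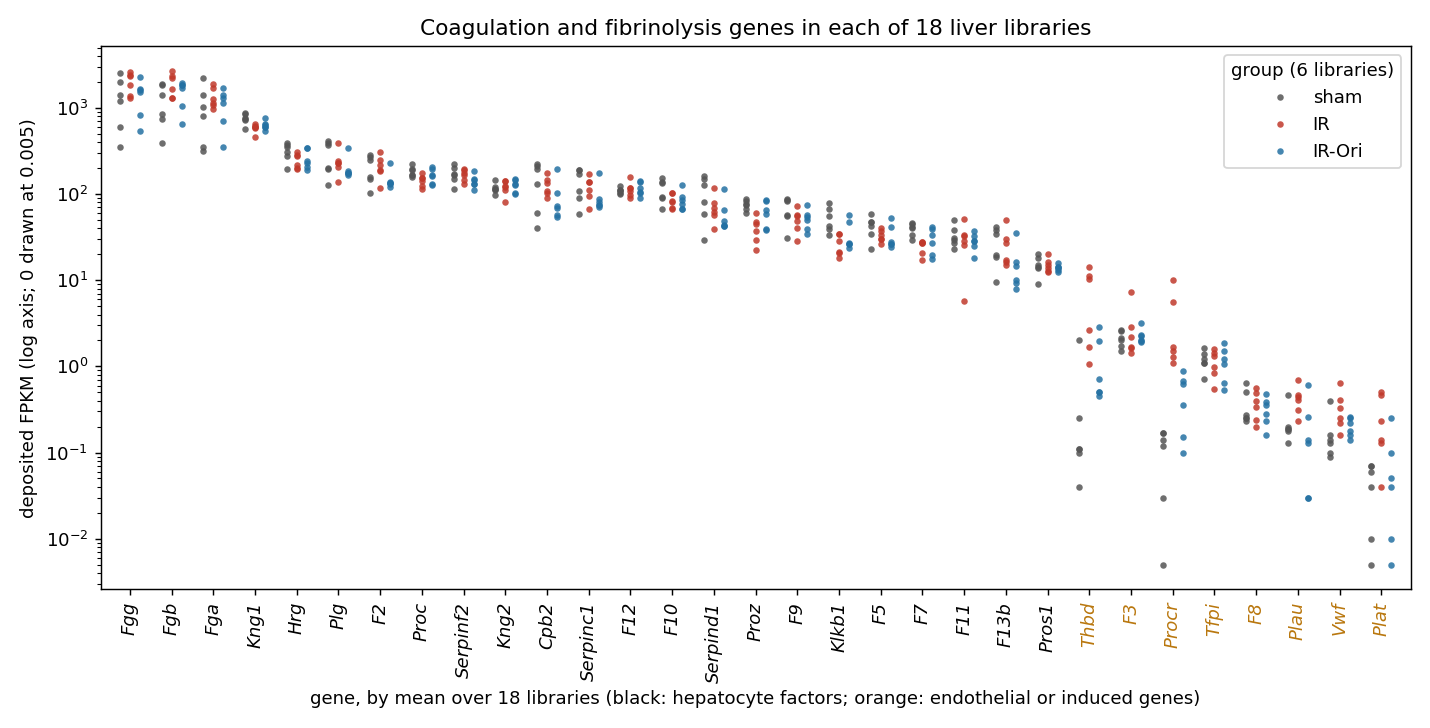
FPKM of the 31 genes in each of the 18 libraries on a log axis, with genes ordered by their mean and a value of 0 drawn at 0.005; colours mark sham, IR and IR-Ori, black names the hepatocyte factors and orange names the endothelial or induced genes. The fibrinogen chains lie on top and the 8 endothelial or induced genes take the lowest 8 places, where the IR libraries of Procr stand above the sham libraries, as do those of Thbd except for sham 1.

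The comparison of IR with sham asks what 1 h of ischemia and 6 h of reperfusion did to these genes. The endothelial protein C receptor (Procr) and thrombomodulin rose, and plasma prekallikrein (Klkb1) fell. These are 2 of 31 genes higher (6.45%) and 1 of 31 lower (3.23%), against 5.52% higher and 2.36% lower among all 14595 genes tested, so the shares of the clotting genes are near the background. The test was edgeR's quasi-likelihood F test with Benjamini-Hochberg adjustment over all genes tested, called at an adjusted p under 0.05. The median log2 fold change of the 31 was -0.088, beside 0.003 over all genes. Among the 23 hepatocyte factors 19 had a negative log2 fold change, with a median of -0.24 and 1 past the test. The median was 0.01 with 11 negative in the libraries with a mitochondrial share of 15% or more, and -0.55 with 21 negative in those under 15%. It was -0.15 without sham 1, -0.44 without sham 2, -0.40 without sham 5 and -0.41 without IR 6. In a bulk sample, fewer cells of a type and less RNA per cell cannot be told apart.

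Procr binds protein C on the endothelium and presents it for activation. Its FPKM was 0.00 to 0.17 in sham (median 0.13), 1.09 to 10.05 in IR (median 1.60) and 0.10 to 0.89 in IR-Ori (median 0.50). Every IR library lay above every sham and every IR-Ori library, while the sham libraries held only 0 to 7 counts each. In IR, libraries 4 and 5 were highest at 5.66 and 10.05, and the other 4 lay between 1.09 and 1.69. The log2 fold change of IR against sham was 4.82 ± 0.68 (SE; 28.2-fold, edgeR adjusted p = 0.000654). It was 5.29 (adjusted p = 0.00868) in the libraries with under 15% mitochondrial counts and 3.83 (adjusted p = 0.0794) in the others, each 3 against 3.

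Thrombomodulin binds thrombin and turns it from a clotting enzyme into the activator of protein C. Thbd was 0.04 to 2.02 FPKM in sham (median 0.11), 1.08 to 14.18 in IR (median 6.44) and 0.45 to 2.83 in IR-Ori (median 0.60). IR libraries 4, 5 and 6, those with under 15% mitochondrial counts, held 10.21 to 14.18 and the other 3 held 1.08 to 2.67. Sham library 1 stood at 2.02, above IR 1 and IR 3, while the other 5 sham libraries held at most 0.25, so the groups overlapped through that library alone. Those 5 held only 2 to 16 counts each. The log2 fold change was 3.79 ± 0.87 (13.8-fold, edgeR adjusted p = 0.0125), and 5.61 (adjusted p = 0.00139) without sham 1. With the libraries of 15% or more it was 4.36 with adjusted p = 0.0713. With the mitochondrial share as a covariate it was 3.72 (adjusted p = 0.00378), and with the libraries under 15% it was 3.74 (adjusted p = 0.0331).

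Tissue factor pathway inhibitor (Tfpi), which blocks the start of coagulation, was the third endothelial anticoagulant, with 0.71 to 1.64 FPKM in sham, 0.54 to 1.61 after IR and 0.53 to 1.87 with oridonin. The groups overlapped throughout, and its log2 fold change between IR and sham was -0.13 ± 0.32 (adjusted p = 0.847).

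Tissue factor (F3), the receptor that starts coagulation, was 1.49 to 2.68 FPKM in sham (median 2.08), 1.44 to 7.27 in IR (median 1.93) and 1.93 to 3.19 in IR-Ori (median 2.12). IR library 6 alone stood high at 7.27, with the other 5 IR libraries at 1.44 to 2.86. The log2 fold change was 0.43 ± 0.35 (adjusted p = 0.496), and -0.19 without IR 6. A rise of tissue factor mRNA over the whole IR group was not detectable.

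Von Willebrand factor (Vwf), which tethers platelets to the vessel wall, was 0.09 to 0.40 FPKM in sham and 0.16 to 0.65 in IR. Its log2 fold change was 0.88 ± 0.36 (adjusted p = 0.138), and 1.31 (adjusted p = 0.0160) without sham 1, whose 0.40 stood apart from 0.09 to 0.16 in the other sham libraries. Factor VIII (F8), the cofactor of factor IX, was 0.23 to 0.65 in sham and 0.20 to 0.56 in IR, with a log2 fold change of -0.03 ± 0.32. F8 shares 217 bases with the antisense gene Fundc2, and whether counting used strand is not stated. All 8 endothelial or induced genes were low, with means of at most 6.86 FPKM in any group.

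**Figure D2:**
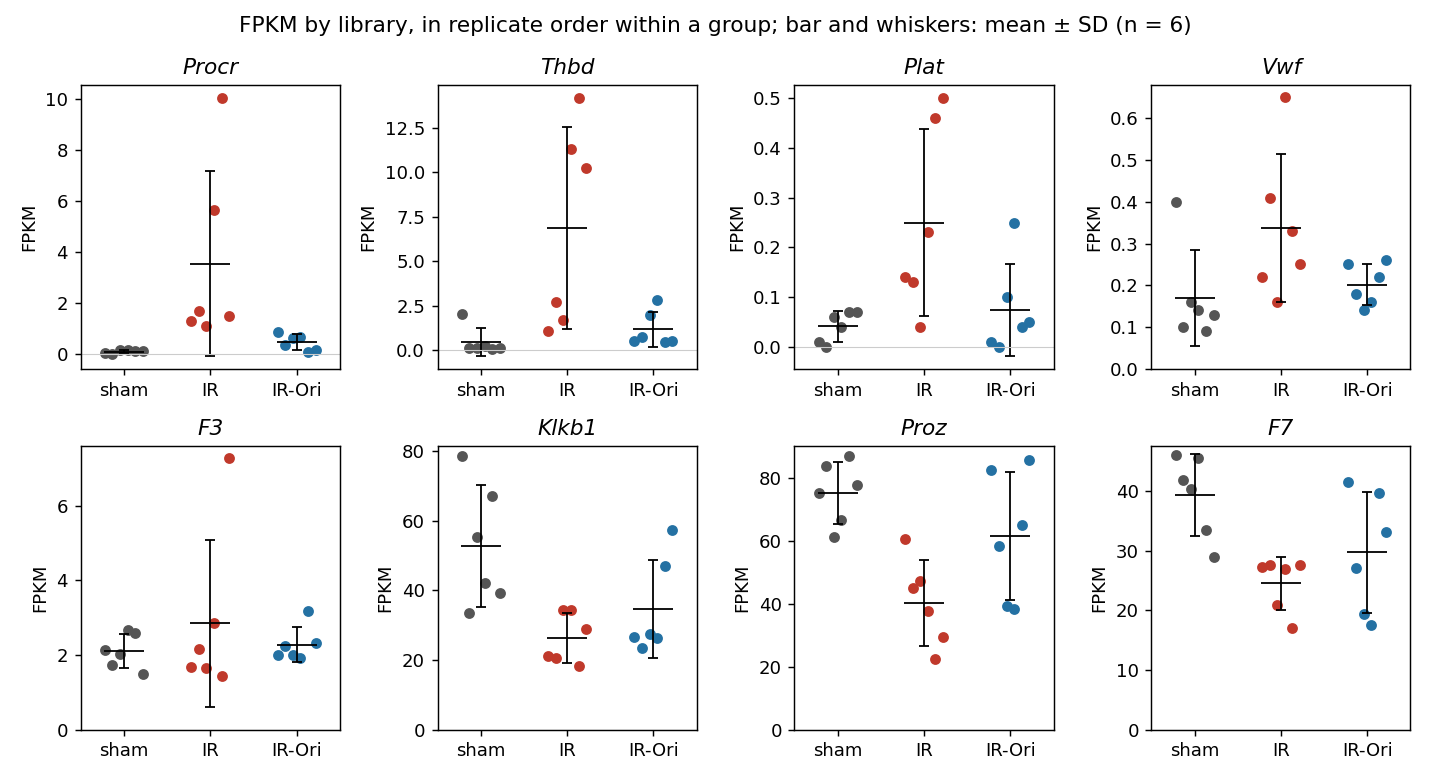
FPKM per library for Procr, Thbd, Plat, Vwf, F3, Klkb1, Proz and F7 in sham, IR and IR-Ori, with a bar for the mean and an error bar for the SD (n = 6 each). The IR points of Procr lie above all others, 3 IR points of Thbd stand at 10.21 or more, 1 IR point of F3 stands at 7.27, and the IR points of Proz and F7 lie below the sham points.

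Markers of several cell types were also higher in IR, and their part in these results was not tested. The summed FPKM of 6 vascular endothelium markers was 3.73 to 8.14 in sham, 7.83 to 18.98 after IR and 6.34 to 9.13 with oridonin, and 2 of the 6, Pecam1 and Cdh5, rose in IR. Of the 6 sinusoidal endothelium markers 1, Lyve1, rose. In both endothelial lists 4 of the 6 had a positive log2 fold change and 2 a negative one. The summed level of 5 monocyte markers was 1.96 to 5.48 in sham and 11.59 to 43.4 in IR, and that of 6 neutrophil markers 3.83 to 26.0 and 61.6 to 296. All 4 monocyte markers tested and all 6 neutrophil markers rose. Of 11 platelet markers 5 could be tested and none was called, with a summed level of 2.79 to 6.27 in sham and 5.25 to 12.75 in IR. Of the 11, only Gp1bb was at 0 in all 18 libraries, and the others had counts in each group.

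Among the proteases and cofactors made by hepatocytes, the contact system held the gene that fell. Plasma prekallikrein is cut by factor XIIa to kallikrein, which releases bradykinin from kininogen. Klkb1 was 33.57 to 78.48 FPKM in sham (median 48.7), 18.30 to 34.45 in IR (median 24.9) and 23.44 to 57.29 in IR-Ori (median 26.9). In FPKM, all sham libraries but the lowest lay above every IR library. Sham 2 held 33.57, beside 34.45 in IR 3 and IR 4. CPM of nuclear counts (counts scaled to the nuclear total of the library) leave out the mitochondrial counts. On that scale Klkb1 did not overlap, with at least 253 in sham and at most 224.7 in IR. The log2 fold change was -1.05 ± 0.28 (2.07-fold, edgeR adjusted p = 0.0278). This call is near the threshold: adjusted p was 0.0511 without IR 2 and 0.0716 without IR 5, and 0.0737 and 0.336 within the libraries of under 15% and of 15% or more mitochondrial counts.

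The other contact genes did not pass. Factor XII (F12), which starts the contact system, was 99.6 to 125 FPKM in sham and 91.3 to 156 in IR, with a log2 fold change of 0.01 ± 0.18. Factor XI (F11), its next substrate, was 23.3 to 50.6 in sham and 5.67 to 51.7 in IR, with -0.24 ± 0.33, and the 5.67 was IR 6. Kng1 was 566 to 880 in sham and 455 to 656 in IR, with -0.40 ± 0.21 (adjusted p = 0.247). Kng2, the other mouse kininogen, was 97.3 to 145 in sham and 80.4 to 143 in IR, with -0.01 ± 0.20. Kng1 and Kng2 share 557 windows of 50 bases, 17.2% and 20.7% of their coding transcripts, so the split of reads between them is uncertain. F11 and Klkb1 lie 4657 bases apart on chromosome 8 (GRCm39), and differed in whether they passed.

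The vitamin K-dependent factors are carboxylated so that they bind calcium and membranes. Factor VII (F7), the partner of tissue factor, was 28.95 to 46.02 FPKM in sham (median 41.1) and 17.12 to 27.60 in IR (median 27.1), and in IR-Ori 17.58 to 41.59. In FPKM every IR library lay below every sham library. In CPM of nuclear counts F7 overlapped through IR 1 alone, at 88.6 against 73.7 in sham 6. The log2 fold change was -0.71 ± 0.23 (adjusted p = 0.0627), which missed the threshold in edgeR, whereas DESeq2 gave an adjusted p of 0.0238. Protein Z (Proz), the cofactor of an inhibitor of factor Xa, was 61.04 to 86.97 in sham (median 76.4), 22.29 to 60.49 in IR (median 41.3) and 38.31 to 85.50 in IR-Ori (median 61.8). Its FPKM too was lower in every IR library than in every sham library. In CPM of nuclear counts Proz overlapped through IR 1 alone, at 588 against 381 in sham 3. Its log2 fold change was -0.91 ± 0.28 (edgeR adjusted p = 0.0516, DESeq2 adjusted p = 0.0140). F7 was called without IR 1 (adjusted p = 0.0232), IR-Ori 3 (0.0463) or IR-Ori 4 (0.0388). Proz was called without IR 1 (0.00736), IR-Ori 3 (0.0459), IR-Ori 4 (0.0433) or IR-Ori 6 (0.0444). Groups with no overlap of FPKM lay lower in 1.13% and higher in 2.04% of all genes tested. Among the 31, F7 and Proz lay lower in FPKM without overlap, and Procr higher.

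Factor X (F10), where the 2 starting routes meet, was 68.0 to 152 in sham and 67.1 to 104 in IR, with a log2 fold change of -0.47 ± 0.22 (adjusted p = 0.215). Factor IX (F9) was 31.3 to 88.0 and 28.5 to 72.1, with -0.47 ± 0.26. Prothrombin (F2) was 103 to 283 and 116 to 304, with a mean of 202 ± 74.0 in sham and 211 ± 63.8 in IR. Protein C (Proc), the zymogen that thrombomodulin and Procr help to activate, was 157 to 226 in sham and 114 to 175 in IR, with -0.41 ± 0.19 (adjusted p = 0.197). Protein S (Pros1), its cofactor, was 8.96 to 19.9 and 12.54 to 20.03, with -0.04 ± 0.19. None of these 5 passed, and the levels overlapped between groups in each.
F7, F10 and Proz stand in a row on chromosome 8 (GRCm39), 1498 and 4237 bases apart. All 3 had negative log2 fold changes, as did 19 of the 23 hepatocyte factors, these included. The 5 genes of the vitamin K cycle and of factor secretion (Ggcx, Vkorc1, Vkorc1l1, Lman1 and Mcfd2) gave 0 calls in the 3 comparisons between groups.

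Fibrinogen, the substrate of thrombin and a classical acute-phase protein, did not pass in any chain. Fga was 320 to 2223 FPKM in sham and 979 to 1890 in IR, with a log2 fold change of 0.34 ± 0.43 (adjusted p = 0.684). Fgb was 391 to 1874 and 1316 to 2710, with 0.64 ± 0.38 (adjusted p = 0.320). Fgg was 356 to 2516 and 1295 to 2641, with 0.49 ± 0.41 (adjusted p = 0.508). The genes stand in a row on chromosome 3 (GRCm39) with gaps of 11026 and 6513 bases. The ratio of Fgg to Fga stayed between 1.11 and 1.74 in the 6 sham libraries, while Fga itself ran from 320 to 2223. The Fgb to Fga ratio ranged more widely, from 0.843 to 2.12. Differences of this size were not detectable against the spread of the sham libraries. Factor XIII B chain (F13b), the carrier of the enzyme that crosslinks fibrin, was 9.44 to 41.5 in sham and 15.1 to 50.2 in IR, with -0.09 ± 0.40.

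The inhibitors and cofactors of plasma gave no call either. Antithrombin (Serpinc1), the main inhibitor of thrombin and factor Xa, was 58.2 to 189 FPKM in sham and 66.9 to 170 in IR, with a log2 fold change of -0.23 ± 0.31. Heparin cofactor II (Serpind1), which inhibits thrombin, was 29.2 to 162 and 39.6 to 117, with -0.57 ± 0.36 (adjusted p = 0.358). Factor V (F5), the cofactor of factor Xa, was 23.2 to 59.4 and 26.3 to 40.8, with -0.42 ± 0.24 (adjusted p = 0.315). Serpinc1 overlaps Zbtb37 and Serpind1 overlaps Pi4ka on the other strand, genes with mean counts of 650 and 369 against 15614 and 2696.

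In fibrinolysis, the plasminogen activators were low. Plat was 0.00 to 0.07 FPKM in sham (median 0.05), 0.04 to 0.50 in IR (median 0.18) and 0.00 to 0.25 in IR-Ori (median 0.04), with a log2 fold change of 2.49 ± 0.77 (edgeR adjusted p = 0.0518; DESeq2 adjusted p = 0.0144). It was called without IR 2 (adjusted p = 0.0488), IR 3 (0.0331), IR-Ori 2 (0.0453) or IR-Ori 4 (0.0393). Urokinase (Plau), the other activator, was 0.13 to 0.47, 0.23 to 0.70 and 0.03 to 0.61, with 0.81 ± 0.51 (adjusted p = 0.351). Plasminogen (Plg), their substrate, was 128 to 412 in sham and 138 to 387 in IR, with -0.29 ± 0.31. Antiplasmin (Serpinf2), which blocks plasmin, was 114 to 224 and 131 to 197, with -0.08 ± 0.20. The carboxypeptidase that protects fibrin (Cpb2) was 39.99 to 226 and 89.2 to 174, with -0.24 ± 0.39, and Hrg, which binds plasminogen, was 194 to 390 and 197 to 309, with -0.40 ± 0.22. None of these 6 passed.

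Other genes of the pathway were taken from lists chosen with earlier results of these data in view. Of 9 other plasma factors 2 rose: the A chain of factor XIII (F13a1), with 0.04 to 0.17 FPKM in sham and 0.42 to 4.87 in IR, and fibrinogen-like protein 2 (Fgl2), with 0.17 to 0.95 and 1.40 to 3.70. Their log2 fold changes were 4.19 ± 0.53 (edgeR adjusted p = 0.000324) and 2.11 ± 0.39 (adjusted p = 0.00346). Of 13 other inhibitors and regulators of fibrinolysis 10 could be tested, with 5 positive and 5 negative log2 fold changes and a median of -0.04. Plaur, Anxa2 and S100a10 were among those that rose. The urokinase receptor (Plaur) was 0.08 to 0.60 and 1.05 to 4.65, with 3.34 ± 0.62 (adjusted p = 0.00346). Annexin A2 (Anxa2) and S100a10, which form a plasminogen receptor, had 2.94 ± 0.44 and 2.17 ± 0.36. Only 1 of 4 thrombin receptors, F2r, could be tested, and it was not called.

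**Figure D3:**
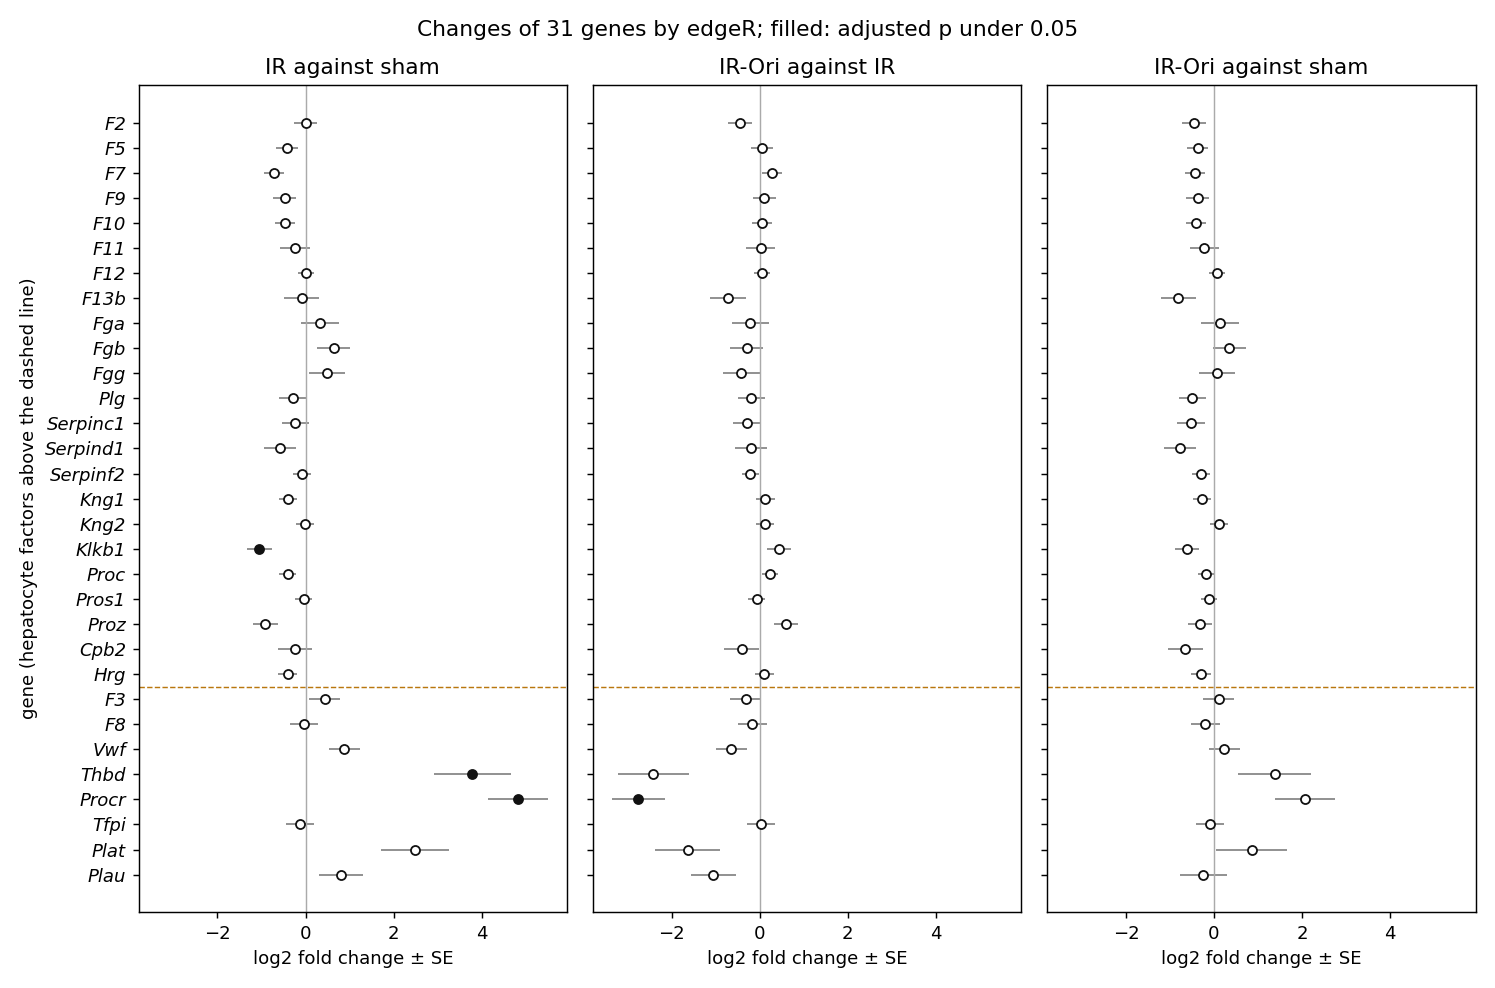
Log2 fold change ± SE of the 31 genes in 3 panels, IR against sham, IR-Ori against IR and IR-Ori against sham (6 libraries a group), with filled points for an adjusted p under 0.05 and a dashed line between the hepatocyte factors and the 8 endothelial or induced genes. Filled points are Procr, Thbd and Klkb1 in the first panel and Procr in the second, and the third has none.

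The comparison of IR-Ori with IR asks what oridonin changed after the same injury. It shares the IR libraries with the comparison above, so a chance high value in IR enters both with opposite signs. Procr fell, with a log2 fold change of -2.76 ± 0.59 (6.75-fold, edgeR adjusted p = 0.0162). It was 1 of 31 genes called lower (3.23%) against 3.01% of all genes, and 0 of 31 were called higher against 0.596%. Of the 31, 4 had an unadjusted p under 0.05 by edgeR, a smaller share than the 3532 of all 14595 genes. Groups without overlap of FPKM lay lower in 1.1% and higher in 0.391% of all genes, and among the 31 Procr lay lower.

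The Procr call was lost in several settings. The adjusted p was 0.0523 without IR 4 and 0.0542 without IR 5, with log2 fold changes of -2.55 and -2.23, and -1.32 (adjusted p = 0.450) in the libraries of 15% or more, where 5 IR-Ori libraries met 3 IR libraries. With the mitochondrial share as a covariate it was -2.33 (adjusted p = 0.0504). Thbd was lower on average in IR-Ori, at 1.16 ± 0.999 FPKM against 6.86 ± 5.70 in IR, with -2.42 ± 0.81 (adjusted p = 0.0897), -1.19 (adjusted p = 0.349) with the covariate and -0.40 in the libraries of 15% or more. Without sham 1 its adjusted p was 0.0355, with -2.39. Plat had -1.64 ± 0.73 (adjusted p = 0.181), Plau -1.05 ± 0.52 (adjusted p = 0.216) and Vwf -0.64 ± 0.36 (adjusted p = 0.267). The 8 endothelial or induced genes had a median of -0.85, beside 0.02 for the 23 hepatocyte factors and -0.0002 over all genes. For the 8 it was -0.37 in the libraries of 15% or more, and -0.18 by limma on log2(FPKM + 1) without a filter. With the filter, which left out members under 1 FPKM such as F8, limma gave a median of -0.72. On log2(FPKM + 0.1) with that filter the median was -1.15. The summed monocyte markers were 3.75 to 8.49 FPKM in IR-Ori and the neutrophil markers 7.5 to 60.8, and 3 of 4 and 1 of 6 were called lower than in IR.

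No hepatocyte factor was called between IR-Ori and IR. Klkb1 had a log2 fold change of 0.44 ± 0.28 (adjusted p = 0.333), Proz 0.59 ± 0.28 (adjusted p = 0.200) and F7 0.28 ± 0.23 (adjusted p = 0.458). Without IR 1, which had the highest Proz value of its group, Proz was called higher at 0.89 (adjusted p = 0.0448). F13b had the largest negative value among them, -0.72 ± 0.40 (adjusted p = 0.270), with 7.81 to 35.3 FPKM in IR-Ori. The fibrinogen chains had -0.21 ± 0.43, -0.29 ± 0.38 and -0.42 ± 0.41 for Fga, Fgb and Fgg. Outside the 31, F13a1 fell with -4.15 ± 0.53 and Fgl2 with -1.65 ± 0.38, and Plaur with -2.28 ± 0.58, Anxa2 with -2.99 ± 0.44 and S100a10 with -1.89 ± 0.36.

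Between IR-Ori and sham no gene passed, 0% higher and 0% lower of all 14595, and 0 of the 31. At an unadjusted p under 0.05 edgeR gave 1460 of all genes and 3 of the 31 (Procr, Serpind1 and Klkb1), and DESeq2 called 34 genes higher and 4 lower. Procr had a log2 fold change of 2.06 ± 0.68 (adjusted p = 0.446), Klkb1 -0.61 ± 0.28 (adjusted p = 0.498) and Serpind1 -0.77 ± 0.36 (adjusted p = 0.498). These misses do not show that the levels are alike.

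The mitochondrial share moved with the members within groups, apart from treatment. In a fit with the group and this share on nuclear counts, 10 of 31 genes (32.3%) were lower and 2 (6.45%) higher in libraries with a larger share, against 22.3% and 20.3% of 14639 nuclear genes. Antithrombin had a slope of -0.40 ± 0.07 log2 units for each 10 percentage points, heparin cofactor II -0.47 ± 0.09, prothrombin -0.34 ± 0.06 and plasminogen -0.37 ± 0.08. F9, F10, F13b, Cpb2, F8 and Thbd were also lower, Thbd most with -0.96 ± 0.30, and Proz (0.27 ± 0.08) and Tfpi (0.29 ± 0.10) were higher. The groups differed for Thbd. In CPM of nuclear counts IR 4, 5 and 6 held 40.7 to 58.4, and IR 1, 2 and 3 held 7.07 to 12.7. Sham 1 held 8.37 and the other sham libraries at most 1.05, with low and high shares among them. IR-Ori 5, with the smallest share of its group, held the lowest Thbd there (1.95). Kng1 had a slope of 0.002 ± 0.07. Without IR 1, the library with the largest share in IR, neither Proz (adjusted p = 0.172) nor Tfpi (0.175) was called. Tfpi was also lost without sham 2 (0.0523) or IR 6 (0.0640), and F10 without sham 2 (0.127) or IR-Ori 5 (0.0690). IR-Ori 5, with 14.1% mitochondrial counts, held 174.9 FPKM of Serpinc1 where the other 5 IR-Ori libraries held 70.7 to 86.8. Of the 10, 8 are hepatocyte factors of 23 (34.8%), and of the 7 hepatocyte markers 3 were lower (42.9%), with a median slope of -0.24 beside -0.12 for the factors. What sets the share was not tested.

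**Figure D4:**
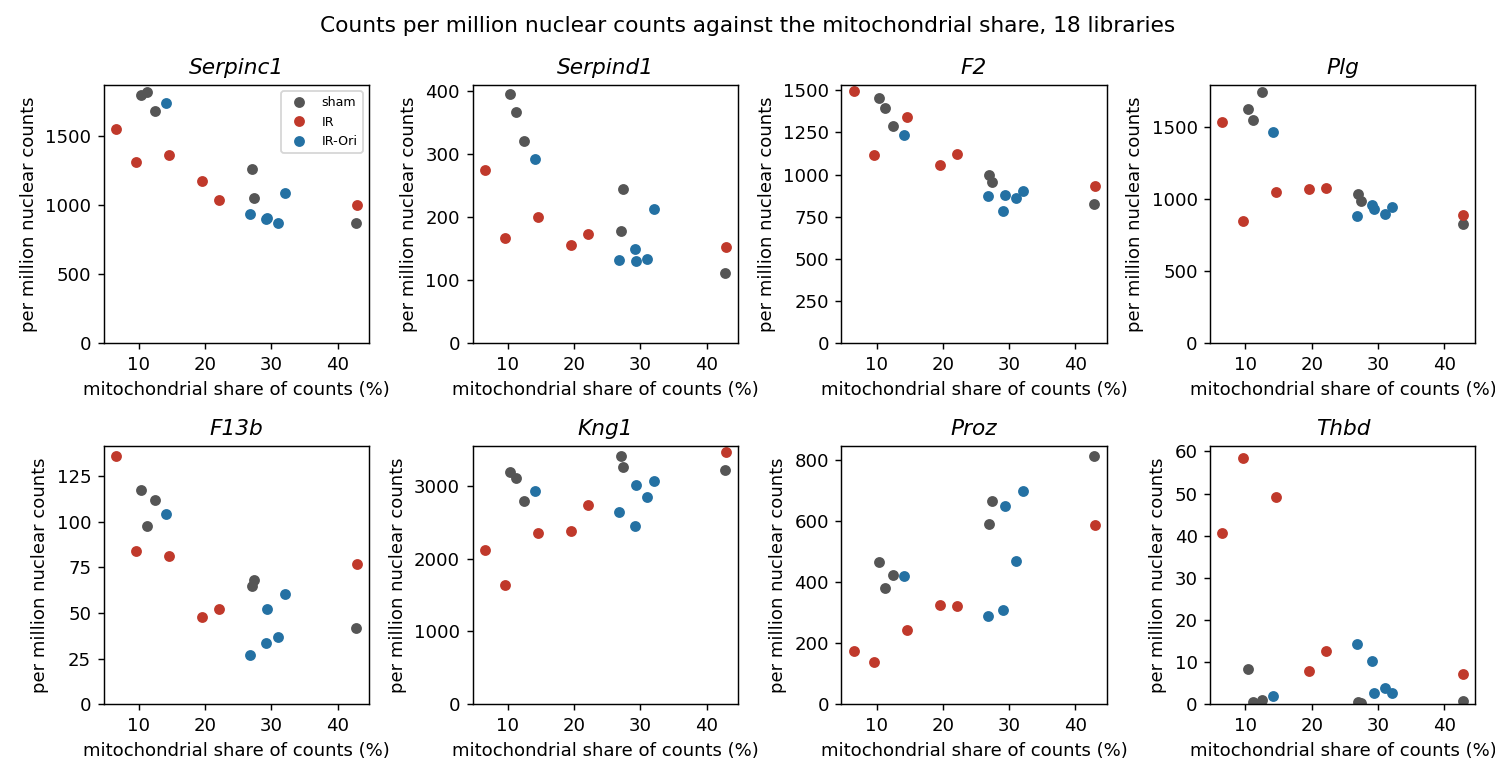
CPM of nuclear counts (counts scaled to the nuclear total of the library) of Serpinc1, Serpind1, F2, Plg, F13b, Kng1, Proz and Thbd against the percentage of counts from mitochondrial genes, 1 point a library, coloured by group. Serpinc1, Serpind1, F2, Plg and F13b are lower in libraries with a larger share, Proz is higher and Kng1 shows little slope. Thbd is lower with a larger share in IR, while IR-Ori 5, with the smallest share of its group, has the lowest Thbd of that group.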

How the data were processed

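RNA-seq libraries of mouse liver were used, 6 each of sham, IR and IR-Ori. Trimming used cutadapt 1.9.1 and alignment HISAT2 2.2.1 on GRCm39, per the submitters' processing notes. Which counting tool, annotation release and strand setting were used is not given in the sources used here. Whole-number counts per gene, with no scaling, and FPKM were deposited by the authors. Dividing counts by exonic size and by the library total returned 100% of the deposited FPKM within 0.0051, so their totals include the 37 mitochondrial genes.

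The test was run in edgeR 4.0.16 (R 4.3.3). filterByExpr (minimum count 10, minimum total 15) left 14595 of 56691 genes. All 18 libraries entered 1 quasi-likelihood model of the group, with TMM scaling and 15 residual degrees of freedom, and p-values had Benjamini-Hochberg adjustment. The common biological coefficient of variation was 0.398, so the spread between libraries sets the precision. SE is the size of the log2 fold change divided by the square root of F. The slope on the mitochondrial share was fitted to nuclear counts. Alternatives were DESeq2 1.42.0, its size factors, limma 3.58.1 on log2(FPKM + 1) of the deposited FPKM, no filter, a replicate block, mitochondrial settings and leaving out each library. The script was tested on simulated data.

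No 2 libraries were identical. The 31 genes and the 15 other lists of 95 genes were chosen with earlier results of these data known. The text names all 31, Alb and Plaur. It also names up to 4 genes of other lists with the smallest p among those past the threshold, but not of every list. Monocyte and neutrophil markers past the threshold are given as counts and summed levels, without names. A result that this rule would name is not reported here. Gp1bb and other genes given for short lists were named after their values were seen.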

Additional observations from a re-analysis of the deposited data

Results flagged for a closer look

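In each gene and group, the highest or lowest FPKM was compared with the rest by Dixon's criterion at 95% for 6 values. Chance gives about 1 in 20. FPKM totals include the mitochondrial counts, and the check was not run on nuclear counts. Of 93 combinations of gene and group, 12 had a library that stood apart, in 11 genes. IR-Ori 5, the IR-Ori library with the smallest mitochondrial share, stood high in 7 of them. Prothrombin (F2) was 231 FPKM there against 121 to 139 in the other IR-Ori libraries. Plasminogen (Plg) was 339 against 167 to 183, and antithrombin (Serpinc1) 174.9 against 70.7 to 86.8. Heparin cofactor II (Serpind1) was 114 against 42.1 to 66.0, and Cpb2 194 against 53.7 to 103. F13b was 35.3 against 7.81 to 16.2, and tissue factor (F3) 3.19 against 1.93 to 2.32.

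IR 6 held 7.27 FPKM of F3, against 1.44 to 2.86 in the other IR libraries, and IR 5 held 455 of Kng1 against 590 to 656. Sham 1 held 2.02 FPKM of Thbd against 0.04 to 0.25 and 0.40 of Vwf against 0.09 to 0.16. Sham 3 held 0.47 of Plau against 0.13 to 0.20.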

How the results depend on the processing

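No direction of a called gene turned under any alternative run. Of the 31 genes, 1 was called lower in IR than in sham; DESeq2 gave 3, edgeR with DESeq2 size factors 2, limma on log2(FPKM + 1) 2 and on log2(FPKM + 0.1) 2, limma without a filter 0, leaving the mitochondrial genes out 3, the mitochondrial share as a covariate 3, and libraries of 15% or more 0, where also 0 were called higher in place of 2. Leaving out 1 library gave 0 to 3 lower and 2 to 3 higher. In IR-Ori against IR, 1 gene was called lower, but 0 by limma without a filter, 0 with the covariate and 0 in libraries of 15% or more, and leaving out 1 library gave 0 to 2 lower and 0 to 1 higher. With the mitochondrial share, 2 were higher and 10 lower, 0 to 2 and 9 to 13 when 1 library was left out. With IR 6 and IR-Ori 5 both left out, chosen after seeing the data, 1 was higher. The cause of these shifts was not tested, except that the 15% setting has fewer libraries. It could not be run for IR-Ori under 15%, which has 1 library.

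With the replicate number as a block (replicate block), 0 of the 31 were called lower in IR than in sham, 0 lower in IR-Ori than in IR and 0 higher with the mitochondrial share. Adjusted p was 0.0529 for Klkb1 in IR against sham and 0.0601 for Procr in IR-Ori against IR. Libraries of the same number deviated together in 6 of 18 pairs (correlation over 0.1; range -0.441 to 0.418), and 2 libraries were closest to their own number, so the numbers were not taken to pair samples. Over all genes, IR against sham gave 806 higher and 345 lower, 453 and 191 with the block, 1113 and 705 by DESeq2 and 1157 and 718 with the covariate. Low counts limit Procr, Plat, Plau, Vwf and F8, and also Thbd in sham, where the libraries other than sham 1 held 2 to 16 counts.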
